A study of Mus musculus with 28 samples.

Results

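The p53 target genes described here are 34 genes of the p53 pathway, listed by symbol: Trp53, which encodes p53 itself, and 33 genes that p53 is known to control or that control p53. Each symbol was looked up in a table of 17342 genes by 7 RNA-seq libraries, and all 34 were in it. They were sorted by role into p53 and its feedback regulators (5 genes), arrest and growth control (7), apoptosis (14), DNA repair (5), and metabolism and redox (3). The libraries were made from V6.5 cells, a line of mouse embryonic stem cells (ESCs), which is male and of mixed 129 and C57BL/6 origin. All cells were kept in medium with serum and LIF on feeder cells, depleted of feeders by pre-plating, and left overnight on gelatin before RNA was taken. The groups were Tet2-WT (3 independent ESC cultures with wild-type Tet2), Tet2-Mut (2 clones with a mutated Tet2, the mutation not being described in the labels) and Tet2-KO (2 Tet2 knockout clones). Every Tet2-Mut and Tet2-KO library came from a clone, and the Tet2-WT libraries came from cultures. In comparisons with Tet2-WT, being a clone and the Tet2 genotype therefore cannot be told apart. The labels do not say whether the clones share a parent culture with Tet2-WT. Tet2 encodes an enzyme that oxidizes methylated cytosine in DNA. No drug, radiation or other p53-activating treatment is named for any group, so the values describe p53 target genes in growing cells.

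The protein p53 is a transcription factor that DNA damage and other stress stabilize. It binds a pair of adjacent half-sites in or near its target genes and raises genes that stop the cell cycle, start apoptosis, repair DNA or restrain p53 itself. Mdm2, a ubiquitin ligase that is itself a target, marks p53 for destruction and closes the loop. Mouse ESCs are known for a high level of p53 and a weak G1 checkpoint.

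Promoter sequences from RefSeq (GRCm38.p6, the assembly of the mm10 build) are shown first because the half-site is the feature by which p53 finds its targets. Windows of 300 bases, from 250 before to 50 after each annotated start, were held for 26 of the 34 members (36 windows). Each window was searched for the 10-base p53 half-site consensus, named here because it contains ambiguous letters. The consensus is its own reverse complement, so a search of 1 strand covers both. A pair was 2 half-sites that did not overlap, with 0 to 13 bases between them. Of 32851 windows over all genes, 0.0731% held a pair with 0 mismatches and 1.09% a pair with at most 1. Of the 36 member windows 1 held a pair with 0 mismatches (Cdkn1a) and 6 a pair with at most 1. Counted by gene, these were 1 and 6 of the 26 members. A half-site without a mismatch stood in 14 of the 36 member windows and in 8.36% of all windows. The 6 member stretches with a pair of at most 1 mismatch are printed 5′ to 3′ on the strand of the gene, with the half-sites of the pair in capitals.
Cdkn1a: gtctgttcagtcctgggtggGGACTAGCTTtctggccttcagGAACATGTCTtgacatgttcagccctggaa
Ccng1: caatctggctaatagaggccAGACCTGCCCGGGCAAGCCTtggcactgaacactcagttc
Bax: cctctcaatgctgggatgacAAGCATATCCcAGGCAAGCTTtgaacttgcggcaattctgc
Rps27l: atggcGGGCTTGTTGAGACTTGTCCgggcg
Polk: gcttGAACTAGCCTcAAACTTATTCtata
Gtse1: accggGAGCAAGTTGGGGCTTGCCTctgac
The Cdkn1a stretch lies at chr17:29090886-29090957 on the plus strand, and its pair in capitals, with a spacer of 12 bases, runs from -73 to -42 relative to the start. The 10 bases directly after its second half-site match the consensus but for their first base. With that half-site they form a pair without a spacer and with 1 mismatch. The search kept only the pair with the fewest mismatches, so this adjacent pair is not capitalized as a whole. Those of Rps27l (chr9:66946291-66946320) and Gtse1 (chr15:85859940-85859969) are on the plus strand too, with pairs from -117 to -98 and from -1 to 19. The stretches of Ccng1 (chr11:40755442-40755501), Bax (chr7:45467070-45467130) and Polk (chr13:96519394-96519422) are on the minus strand, with pairs from -195 to -176, -212 to -192 and -231 to -211. Cdkn1a, Rps27l, Gtse1 and Polk have 2 windows each, and the pair stands in that of the upstream start in Cdkn1a and of the downstream start in the other 3. A match is a stretch of letters and no measure of binding, and many p53 sites lie outside such windows. Ddb2, Trp53inp1, Tnfrsf10b, Pmaip1, Zmat3, Xpc, Rrm2b and Perp had no window.

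Levels are given as normalized counts, the reads assigned to a gene divided by a size factor of the library, on a linear scale. They can be compared between libraries but not between genes, because they are not divided by length. A difference is a log2 fold change of (normalized count + 1) with its standard error (SE). Its adjusted p came from limma, fitted over all 7 libraries and 17338 genes with Benjamini-Hochberg adjustment. A gene was said to rise, fall or pass the test where this adjusted p was under 0.05, and calls of other fits are named as such. DESeq2 called a larger share of all genes than limma in each comparison. All 34 members passed the filter on low values. The p-values measure the spread between cultures and clones, and groups of 2 clones borrow their spread from the other groups. The 3 comparisons share libraries, so their results are not independent of each other.

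The libraries held 41.9 to 58.5 M reads assigned to genes. Tet2 itself was at 4624 and 5206 in the Tet2-KO libraries, 10244 to 12074 in Tet2-WT, and 9992 and 13181 in Tet2-Mut. It was lower in Tet2-KO than in Tet2-WT by a log2 fold change of -1.15 (SE 0.12, limma adjusted p = 0.00522). Whole-gene values do not show which exons were read. The 14 ESC markers were above 0 in every group, with summed levels of 379537 to 386845 in Tet2-WT, 384406 and 386495 in Tet2-Mut, and 338118 and 393103 in Tet2-KO. The summed level of 24 fibroblast markers was 7398 to 7842 in Tet2-WT, and 10126 and 8379 in Tet2-Mut. It was 22518 and 12850 in Tet2-KO replicates 1 and 2. None of these markers was at 0 in a whole group. In Tet2-KO against Tet2-WT 9 of 24 were higher and 0 lower, beside 3.0% and 2.91% of all genes. The summed level of 11 primitive streak and mesoderm markers was 857 to 1020 in Tet2-WT, 663 and 729 in Tet2-Mut, and 1994 and 2547 in Tet2-KO. Chromosome 8 as a whole also moved with the groups. The median log2 fold change of its 861 matched genes was -0.26 in Tet2-KO and 0.27 in Tet2-Mut against Tet2-WT, and -0.52 in Tet2-KO against Tet2-Mut. On chromosome 14 the median of 569 genes was 0.49 above the Tet2-WT mean in Tet2-Mut replicate 2 and -0.05 in replicate 1. In a bulk sample fewer cells of a type and less RNA per cell cannot be told apart.

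In Tet2-KO against Tet2-WT, 6 of the 34 members changed: Plk2, Bbc3, Ccng1 and Zmat3 rose, and Mdm4 and Gdf15 fell. Of all 17338 genes 3.0% rose and 2.91% fell in this comparison. The median log2 fold change of the members was 0.13, beside -0.00 over all genes, and 20 of 34 were above 0. In Tet2-Mut against Tet2-WT, Zmat3 and Ckap2 rose and no member fell by limma (0 of 34, with 16 members at an unadjusted p under 0.05 in either direction, and 0 falling by edgeR or DESeq2). There 1.44% of all genes rose and 1.98% fell. Positive fold changes were seen for 28 of 34 members, with a median of 0.17 beside 0.01 over all genes. In Tet2-KO against Tet2-Mut, Btg2 rose and Ckap2, Mdm4, Ei24 and Gdf15 fell, where 2.64% of all genes rose and 3.55% fell. The median was -0.09 beside 0.00, with 11 of 34 members above 0. Counts at an unadjusted p under 0.05, here and below, were not taken over all genes. They therefore show no trait particular to the members or to a list.

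**Figure D1:**
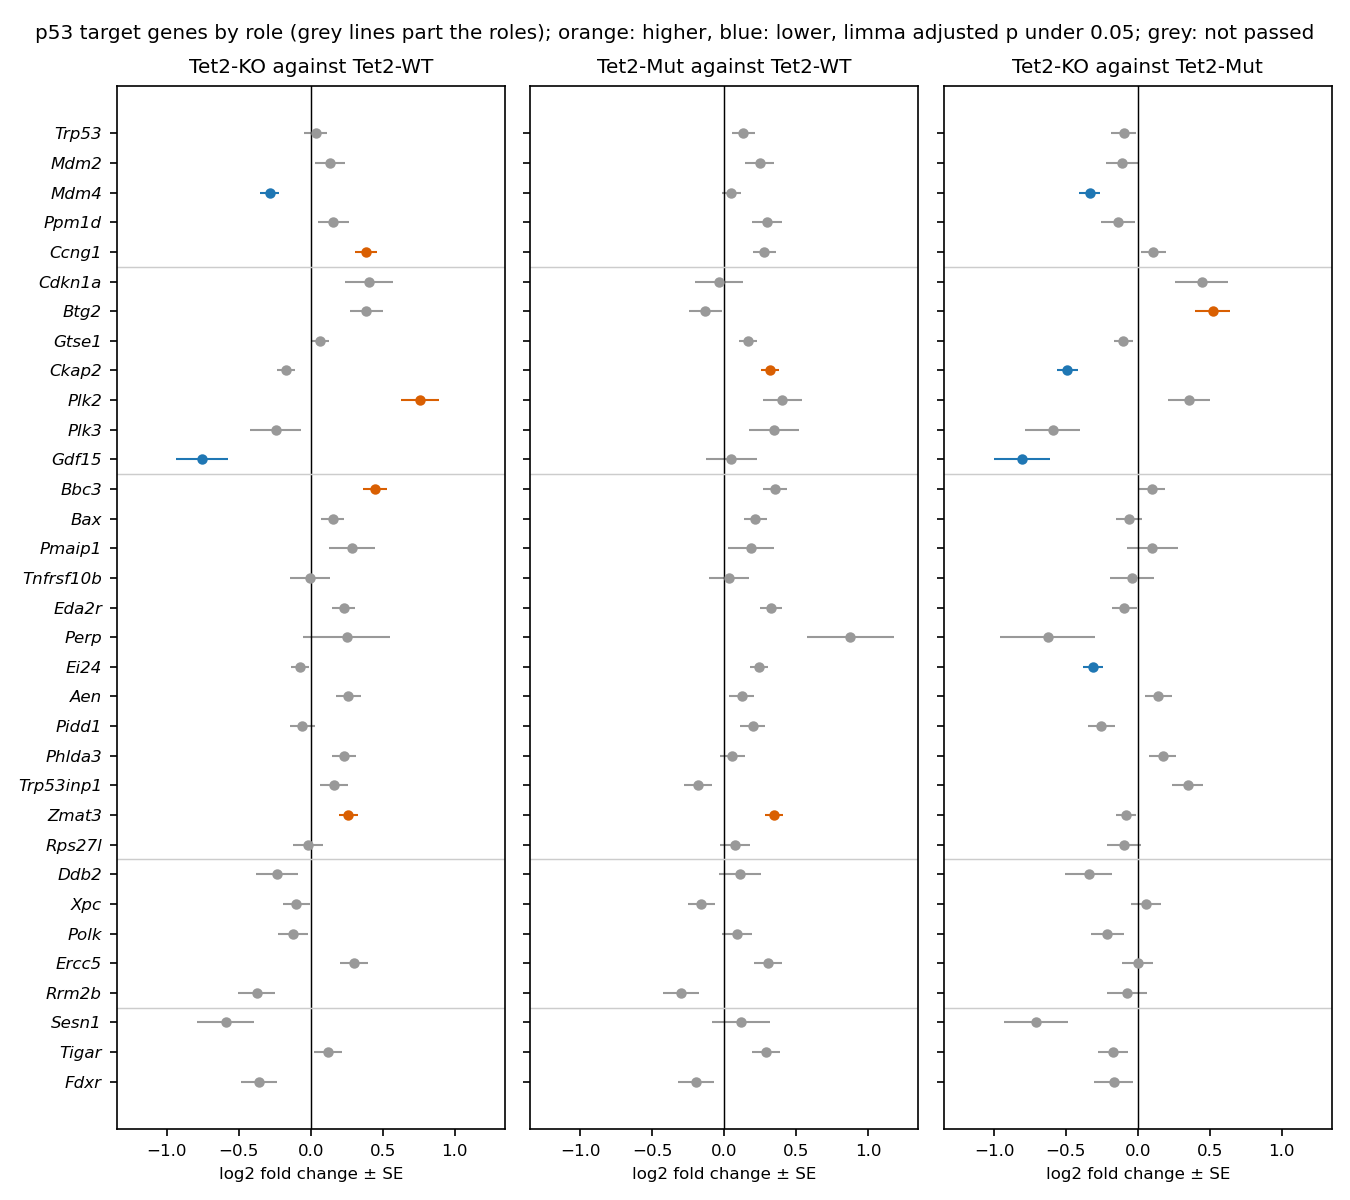
Log2 fold change (± SE) of 33 members in the 3 comparisons, arranged by role. Members past a limma adjusted p of 0.05 are orange where higher and blue where lower, and the others are grey. Fas is left out because of its low counts. Most members lie within 0.5 of 0, and Plk2 (0.76) and Gdf15 (-0.75) lie furthest out among the orange and blue points for Tet2-KO against Tet2-WT.

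Trp53 and Mdm2, the core of the loop, did not pass the test in any comparison. Trp53 (chr11:69580348-69591873) was at 22877, 23863 and 25726 in Tet2-WT, 24558.5 and 28461.5 in Tet2-Mut, and 24212.5 and 25226 in Tet2-KO. The Tet2-KO values lay inside the Tet2-WT range, and Tet2-Mut replicate 2 was the highest of the 7. Its log2 fold change was 0.03 in Tet2-KO against Tet2-WT (95% interval -0.14 to 0.21, limma adjusted p = 0.846), and 0.13 in Tet2-Mut against Tet2-WT (-0.05 to 0.31, adjusted p = 0.379). Transcript levels say nothing of the amount of p53 protein, which is largely set by its stability.

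Mdm2 (chr10:117688875-117710758) was at 6577, 6781 and 6653 in Tet2-WT, 6984 and 8957 in Tet2-Mut, and 7756 and 6917 in Tet2-KO. All 4 clones lay above the 3 Tet2-WT cultures, by a margin that was small for Tet2-Mut replicate 1 and Tet2-KO replicate 2. The log2 fold change was 0.14 in Tet2-KO (95% interval -0.10 to 0.37, limma adjusted p = 0.481) and 0.25 in Tet2-Mut (0.01 to 0.48, adjusted p = 0.215) against Tet2-WT.

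Mdm4, the partner of Mdm2 that blocks the activating part of p53, was lower in Tet2-KO than in both other groups. Its gene (chr1:132986105-133030587) gave 14973, 15527 and 14644 in Tet2-WT, 15945 and 15175 in Tet2-Mut, and 11744 and 12957 in Tet2-KO. Both Tet2-KO values lay below all 5 others. Mdm4 differed by a log2 fold change of -0.29 against Tet2-WT (SE 0.07, limma adjusted p = 0.0395) and -0.33 against Tet2-Mut (SE 0.07, adjusted p = 0.0291). The annotated Mdm4 overlaps 2 unlisted non-coding genes, Gm29257 and Gm41953, and the strand setting of the read counting is not known here.

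Ccng1, which encodes cyclin G1, a recruiter of phosphatase 2A to Mdm2, rose in Tet2-KO. This gene (chr11:40748552-40755309), whose promoter pair is printed above, was at 6774, 7024 and 6887 in Tet2-WT, 8299.8 and 8432 in Tet2-Mut, and 9807 and 8277 in Tet2-KO. All 4 clones were above the Tet2-WT range, and Tet2-KO replicate 1, the library with the highest fibroblast sum, was the highest. In Tet2-KO its log2 fold change was 0.39 (SE 0.08, limma adjusted p = 0.0265), and in Tet2-Mut 0.28 (SE 0.08, adjusted p = 0.0881, called by DESeq2). Tet2-KO and Tet2-Mut did not differ past the threshold (0.11, 95% interval -0.09 to 0.30, adjusted p = 0.543). Ppm1d, the phosphatase Wip1 that inactivates p53, ran from 1222.5 to 1471 in Tet2-WT, with 1599 and 1786 in Tet2-Mut and 1557.5 and 1510.5 in Tet2-KO. It passed no test (adjusted p of 0.16 or more).

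**Figure D2:**
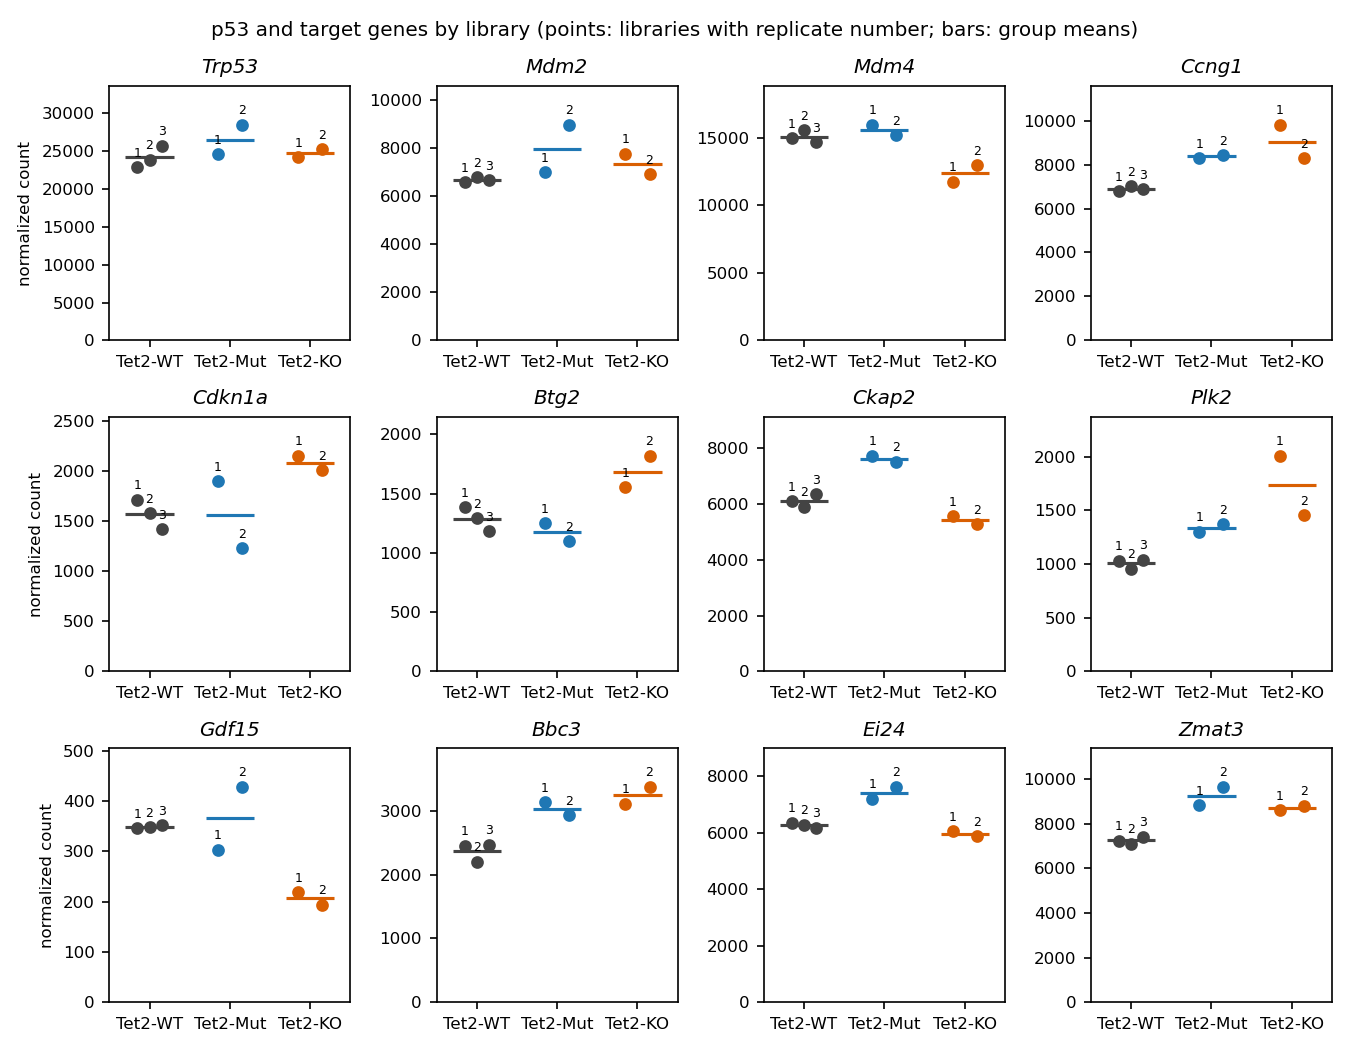
Normalized counts of 12 genes in each of the 7 libraries, with axes from 0 and a bar at each group mean: Trp53, Mdm2 and Cdkn1a and the members past the test in at least 1 comparison. The Tet2-WT points lie close together for most genes, while the clones of a pair part for Cdkn1a, Plk2 and Gdf15.

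Cdkn1a, which encodes the cell cycle inhibitor p21 and is the best known arrest target, did not pass the test. This gene (chr17:29090979-29100722) was at 1711, 1579.7 and 1415 in Tet2-WT, 1898 and 1225 in Tet2-Mut, and 2149 and 2003 in Tet2-KO. Both Tet2-KO clones lay above every other library, while the Tet2-Mut clones fell on either side of the Tet2-WT range. The log2 fold change in Tet2-KO was 0.41 (95% interval 0.03 to 0.79, limma adjusted p = 0.185). In Tet2-Mut it was -0.04 (-0.42 to 0.34, adjusted p = 0.931).

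Plk2, a polo-like kinase of the stress response, had the largest rise among the members past the test in Tet2-KO against Tet2-WT. Its gene (chr13:110395044-110400844) gave 1032, 956.5 and 1039 in Tet2-WT, 1299.5 and 1369.9 in Tet2-Mut, and 2006.5 and 1456 in Tet2-KO. The 3 groups did not overlap, with Tet2-Mut between the other two, and the Tet2-KO clones lay 1.38-fold apart. Its rise was 0.76 on the log2 scale in Tet2-KO (SE 0.13, limma adjusted p = 0.0175), and the value was 0.40 in Tet2-Mut (SE 0.13, adjusted p = 0.132). The Tet2-KO clone with the higher value also had the higher fibroblast sum (22518 beside 12850). In Tet2-Mut the order was the other way. There replicate 1 had the higher fibroblast sum (10126 beside 8379) and the lower values of Plk2 and Ccng1. The part of fibroblast RNA in the values of Plk2 and Ccng1 was not tested.

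Btg2, an antiproliferative gene, separated the clones of both kinds. This gene (chr1:134074865-134079155) was at 1385, 1292 and 1185 in Tet2-WT, 1253 and 1097 in Tet2-Mut, and 1552 and 1819.6 in Tet2-KO. Both Tet2-KO values were above all others, and the Tet2-Mut values were within or below the Tet2-WT range. Against Tet2-Mut it rose by a log2 fold change of 0.52 (SE 0.12, limma adjusted p = 0.0436). The value against Tet2-WT was 0.39 on the log2 scale (SE 0.11, adjusted p = 0.0803), which DESeq2 called. With chromosome medians set equal in every library, an alternative chosen after seeing the data, the value against Tet2-Mut was 0.48 (adjusted p = 0.074).

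Gdf15, a secreted stress cytokine, and Ckap2, a spindle-associated protein, both lie on chromosome 8, at chr8:70629393-70632470 and chr8:22168149-22185819. Gdf15 was at 346, 348 and 352 in Tet2-WT, 304 and 428 in Tet2-Mut, and 219 and 194 in Tet2-KO. Both Tet2-KO values were the lowest of the 7, and the Tet2-Mut values lay on either side of a narrow Tet2-WT range. It fell in Tet2-KO by a log2 fold change of -0.75 against Tet2-WT (SE 0.18, limma adjusted p = 0.0429) and -0.80 against Tet2-Mut (SE 0.20, adjusted p = 0.0455).

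Ckap2 was at 6085, 5893 and 6333 in Tet2-WT, 7716 and 7507 in Tet2-Mut, and 5560.3 and 5277 in Tet2-KO. The 3 groups did not overlap, with Tet2-Mut highest and Tet2-KO lowest. The log2 fold change was 0.32 in Tet2-Mut against Tet2-WT (SE 0.06, limma adjusted p = 0.0363) and -0.49 in Tet2-KO against Tet2-Mut (SE 0.07, adjusted p = 0.00612). The chromosome 8 medians for those comparisons, 0.27 and -0.52, were close to the Ckap2 values. With the median of each chromosome set equal in every library, the Ckap2 values became 0.06 (adjusted p = 0.674) and 0.03 (adjusted p = 0.851). Gdf15 became -0.50 against Tet2-WT (adjusted p = 0.154) and -0.28 against Tet2-Mut (adjusted p = 0.509), so neither gene passed the test. What moved chromosome 8 was not tested.

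**Figure D3:**
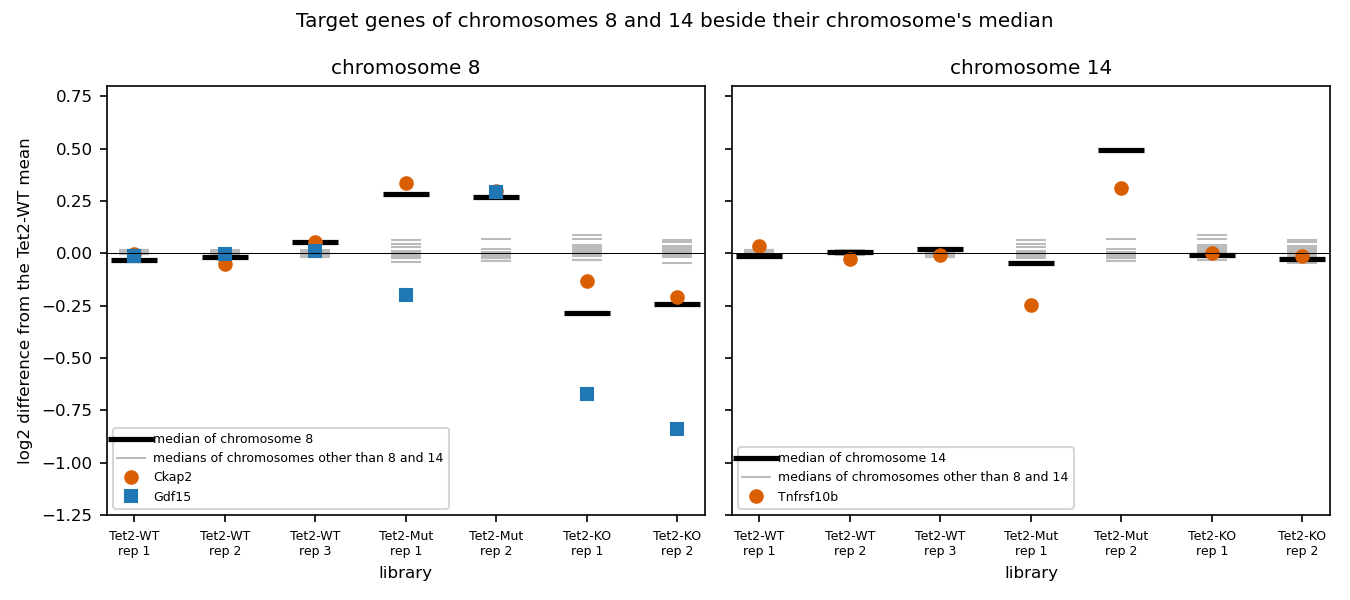
Log2 difference from the Tet2-WT mean in each library for Ckap2 and Gdf15 beside the median of chromosome 8, and for Tnfrsf10b beside the median of chromosome 14. Ckap2 lies near the chromosome 8 median in the 4 clones, Gdf15 lies below it in Tet2-Mut replicate 1 and both Tet2-KO clones, and Tnfrsf10b is high in Tet2-Mut replicate 2, where the chromosome 14 median is 0.49.

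The other arrest genes, Gtse1 and Plk3, passed no test by limma or edgeR fitted over all 7 libraries. Gtse1, a G2 and S phase protein that carries p53 out of the nucleus, ran from 10333 to 10808 in Tet2-WT, with 11327 and 12362 in Tet2-Mut and 11103 and 10972 in Tet2-KO. Plk3, another polo-like kinase, was at 2501 and 4103 in the Tet2-Mut clones against 2446 to 2589 in Tet2-WT, and at 2294.5 and 1971 in Tet2-KO. Its difference between Tet2-KO and Tet2-Mut was -0.59 (SE 0.19, limma adjusted p = 0.117), which DESeq2 called.

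Among the 14 apoptosis genes, Bbc3 and Zmat3 rose in Tet2-KO against Tet2-WT, Zmat3 in Tet2-Mut against Tet2-WT, and Ei24 fell in Tet2-KO against Tet2-Mut. Bbc3, which encodes the BH3-only protein PUMA (chr7:16308398-16318334), was at 2453, 2198 and 2469 in Tet2-WT, 3130.4 and 2931 in Tet2-Mut, and 3106 and 3371.5 in Tet2-KO. All 4 clones were above the Tet2-WT range, and the clones of the 2 genotypes overlapped. Bbc3 had a log2 fold change of 0.45 in Tet2-KO (SE 0.08, limma adjusted p = 0.022) and 0.35 in Tet2-Mut (SE 0.08, adjusted p = 0.0586), which DESeq2 also called and limma did not.

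Zmat3, an RNA-binding zinc finger protein that p53 induces (chr3:32334792-32365665), was at 7240.1, 7105 and 7419 in Tet2-WT, 8807.4 and 9643 in Tet2-Mut, and 8596 and 8791 in Tet2-KO. Again the 4 clones lay above the 3 Tet2-WT cultures. The log2 fold change was 0.26 in Tet2-KO (SE 0.06, limma adjusted p = 0.0495) and 0.35 in Tet2-Mut (SE 0.06, adjusted p = 0.0313). The first of these lay at the threshold, and its adjusted p ran from 0.0167 to 0.183 over the alternatives, among them 0.0679 with chromosome medians set equal. The difference between Tet2-KO and Tet2-Mut was -0.08 (95% interval -0.24 to 0.08, adjusted p = 0.564).

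Ei24, a p53-induced protein of the endoplasmic reticulum (chr9:36779153-36797334), was at 6351, 6275.5 and 6165.4 in Tet2-WT, 7199 and 7614 in Tet2-Mut, and 6056 and 5862 in Tet2-KO. Tet2-Mut lay above Tet2-WT and Tet2-KO below it, without overlap. It was lower in Tet2-KO than in Tet2-Mut by -0.31 (SE 0.07, limma adjusted p = 0.0294). Its differences from Tet2-WT were 0.24 in Tet2-Mut (adjusted p = 0.0696, called by DESeq2) and -0.07 in Tet2-KO (adjusted p = 0.539). The annotated Ei24 overlaps the unlisted non-coding gene Gm26787 by 3524 bases, and Zmat3 overlaps another, 4930429B21Rik, by 177 bases. With the strand setting unknown, reads in these stretches are uncertain.

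Bax, the pore-forming effector of mitochondrial apoptosis, ran from 8216 to 8521 in Tet2-WT, with 9530.3 and 9879.5 in Tet2-Mut and 8504 and 10170.4 in Tet2-KO. It passed no test in any comparison (limma adjusted p of 0.175 or more). Pmaip1, which encodes the BH3-only protein NOXA, was at 1990.2 to 2298 in Tet2-WT, at 2025.5 and 2936 in Tet2-Mut, and at 2958 and 2313 in Tet2-KO. The higher clone of each genotype stood well above Tet2-WT and the lower one close to its range.

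None of the death receptors passed the test by limma. Fas, the receptor of Fas ligand, was at 13.3, 1.9 and 2.4 in Tet2-WT, 24.7 and 11.6 in Tet2-Mut, and 35.1 and 14.5 in Tet2-KO. Those values rest on 16, 2, 2, 24, 12, 34 and 14 reads, so that 2 Tet2-WT libraries were under a floor of 3 reads and no fold is given. Tnfrsf10b, the mouse TRAIL receptor, lies on chromosome 14 and was at 1884.4 and 2780.3 in the Tet2-Mut clones against 2191 to 2292 in Tet2-WT and 2238 and 2215 in Tet2-KO. Tet2-Mut replicate 2, the library in which chromosome 14 was higher as a whole, held the highest value. Eda2r, a receptor of the TNF receptor family on the X chromosome, was at 1758.5 to 1861 in Tet2-WT, 2222 and 2327 in Tet2-Mut, and 2199.5 and 2060.5 in Tet2-KO. Its log2 fold change in Tet2-Mut, relative to Tet2-WT, was 0.32 (SE 0.08, limma adjusted p = 0.0605), past the threshold by DESeq2 and by limma on genes with a mean of at least 50, and not by limma with the filter used here or by edgeR.

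Perp, a desmosomal membrane protein with a role in apoptosis, had the widest gap between clones outside Fas. It was at 1476, 1454.5 and 1690.1 in Tet2-WT, 1843 and 4324 in Tet2-Mut, and 2184 and 1527 in Tet2-KO. The Tet2-Mut clones lay 2.35-fold apart, and the log2 fold change of 0.88 against Tet2-WT (SE 0.30) did not pass the test (limma adjusted p = 0.144). Aen, an apoptosis-enhancing nuclease, was at 3368 to 3635 in Tet2-WT and at 4433 and 3879 in Tet2-KO, with a log2 fold change of 0.26 (adjusted p = 0.111). Phlda3, an inhibitor of Akt, was at 1965 to 2043 in Tet2-WT and at 2219 and 2498 in Tet2-KO (0.23, adjusted p = 0.146). Trp53inp1, which takes part in p53-dependent cell death, was at 6929 to 8204 in Tet2-WT, 7348 and 6035 in Tet2-Mut, and 8434 and 8517 in Tet2-KO. Pidd1, the scaffold of the PIDDosome, and Rps27l, a ribosomal protein variant, also passed no test.

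None of the 5 repair genes passed in any comparison by limma, edgeR or DESeq2 fitted over all 7 libraries. Of these genes 2, 2 and 0 had an unadjusted p under 0.05 in Tet2-KO against Tet2-WT, Tet2-Mut against Tet2-WT and Tet2-KO against Tet2-Mut. Their median log2 fold change was -0.12 in Tet2-KO and 0.09 in Tet2-Mut against Tet2-WT. Rrm2b, the p53-inducible subunit of ribonucleotide reductase that supplies nucleotides for repair, was at 515, 494 and 549 in Tet2-WT, 401 and 443 in Tet2-Mut, and 409.8 and 389.8 in Tet2-KO. All 4 clones lay below the Tet2-WT range, with log2 fold changes of -0.38 in Tet2-KO (SE 0.13, limma adjusted p = 0.12) and -0.30 in Tet2-Mut (SE 0.13, adjusted p = 0.222). Ercc5, the nuclease XPG of nucleotide excision repair, lay the other way. It was at 1423 to 1514 in Tet2-WT, 1880.3 and 1748 in Tet2-Mut, and 1979.7 and 1656 in Tet2-KO, and the log2 fold change was 0.30 in each genotype (adjusted p of 0.11 and 0.13).

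The damage sensors Ddb2 and Xpc and the translesion polymerase Polk had log2 fold changes between -0.34 and 0.11 over the 3 comparisons. Ddb2 ran from 376.5 to 432 in Tet2-WT, with 479 and 396.5 in Tet2-Mut and 331 and 356 in Tet2-KO. The annotated Ddb2 overlaps Acp2 by 2554 bases and Rrm2b overlaps the pseudogene Gm3362 by 1201 bases. Both partners are in the table, so reads in these stretches are uncertain. Xpc overlaps the unlisted non-coding gene Gm52912 by 8898 bases. Plk3 and Eda2r each overlap an unlisted gene, by 84 and 674 bases.

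The 3 metabolism and redox genes passed no test by limma or edgeR fitted over all 7 libraries. By limma 2, 1 and 1 were at an unadjusted p under 0.05 in the 3 comparisons in the order above. Sesn1, an antioxidant protein that restrains mTORC1, was at 826, 777 and 714 in Tet2-WT, 726 and 961 in Tet2-Mut, and 644 and 405 in Tet2-KO. Both Tet2-KO clones lay below all other libraries and 1.59-fold apart. The log2 fold change was -0.59 against Tet2-WT (SE 0.20, limma adjusted p = 0.119) and -0.71 against Tet2-Mut (SE 0.22, adjusted p = 0.103), and DESeq2 called the second of these. Fdxr, ferredoxin reductase, was at 1003.5 to 1134 in Tet2-WT, 874 and 1001 in Tet2-Mut, and 750.4 and 924 in Tet2-KO (-0.36 in Tet2-KO against Tet2-WT, SE 0.12, adjusted p = 0.123). Tigar, a fructose bisphosphatase, was at 3257 to 3725 in Tet2-WT, 3864 and 4726 in Tet2-Mut, and 3768 and 3813 in Tet2-KO.

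**Figure D4:**
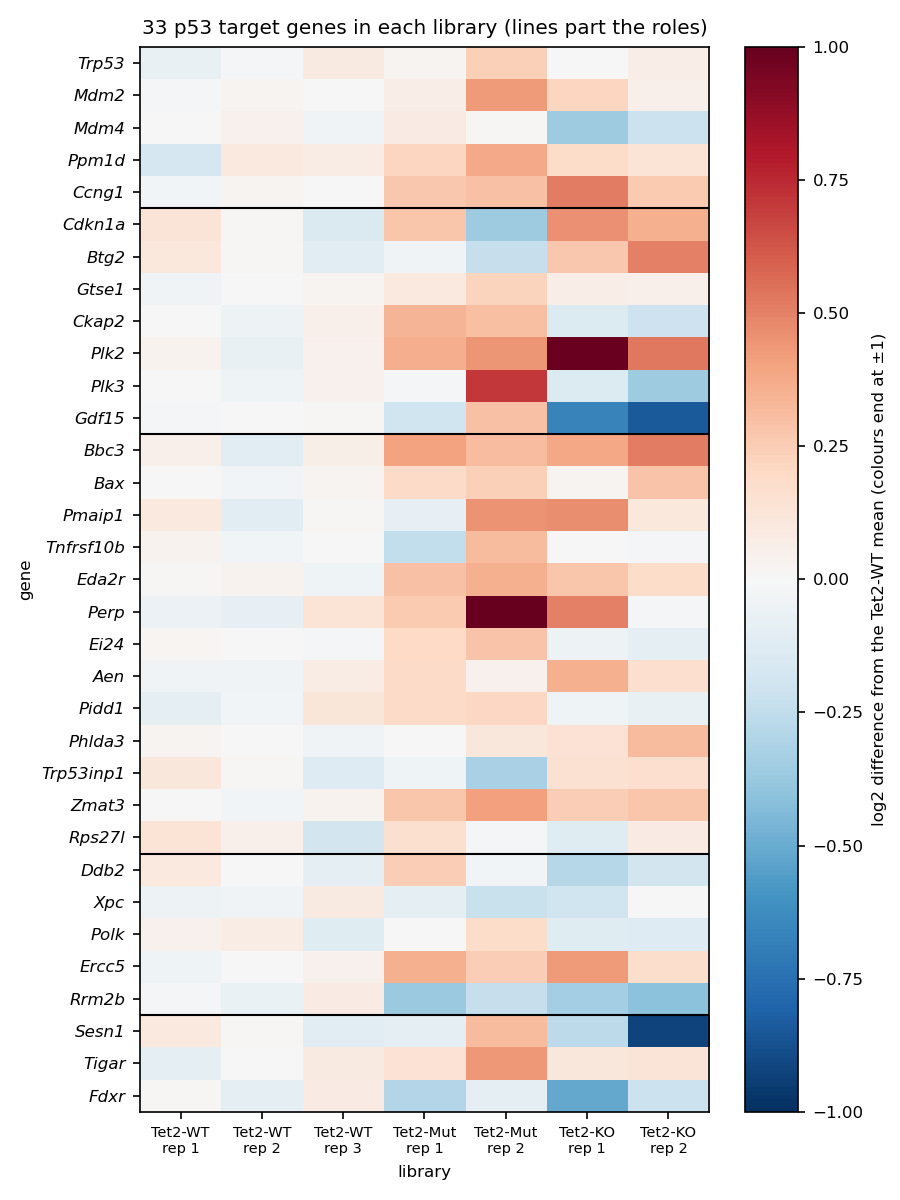
Log2 difference of each of 33 members from the Tet2-WT mean in the 7 libraries, by role, with colours ending at -1 and 1; Fas is left out. The Tet2-WT columns are pale, and Tet2-Mut replicate 2 is the column in which 15 of the 34 members had their highest value. That count was not taken over all genes.

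The libraries of one group were not alike in how far the members spread. In Tet2-WT the coefficient of variation of the 33 members other than Fas ran from 0.797% (Gdf15) to 11.2% (Rps27l). No member other than Fas differed by 1.4-fold or more between Tet2-WT libraries, a fold chosen after the values were seen. Between the Tet2-Mut clones 6 did: Perp, Plk3, Tnfrsf10b, Pmaip1 and Gdf15 were higher in replicate 2, and Cdkn1a was lower there, at 0.646 of replicate 1. Between the Tet2-KO clones 2 did, Perp and Sesn1. The median member lay 0.15 and 0.27 above the Tet2-WT mean on the log2 scale in Tet2-Mut replicates 1 and 2, and 0.09 and 0.07 above it in Tet2-KO replicates 1 and 2. Tet2-Mut replicate 2 held the highest value of 15 members, among them Trp53 and Mdm2, and the lowest of 4, among them Cdkn1a and Btg2. Neither these counts nor those of members 1.4-fold apart were taken over all genes, so they show no trait particular to the members. Over all genes the clones also lay further apart, with a chi-square per degree of freedom of 44.1 in Tet2-Mut and 33.4 in Tet2-KO. Between Tet2-WT cultures it was 7.14 to 13.2.

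The promoter windows of the members past a test did not share a close pair. The best pair had 1 mismatch in Ccng1, 2 in Ckap2, 3 in Bbc3, Mdm4 and Ei24, and 4 in Plk2, Gdf15 and Btg2. Over all genes 10.1% of windows held a pair with at most 2 mismatches, 45.1% with at most 3 and 89.3% with at most 4. Cdkn1a, with 0 mismatches, and Bax, Gtse1, Polk and Rps27l, with 1, did not pass in any comparison in the limma fit of all 7 libraries.

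Other genes of the pathway were counted in lists. For comparison, limma called 3.0% of all genes higher and 2.91% lower in Tet2-KO against Tet2-WT. These shares were 1.44% and 1.98% in Tet2-Mut against Tet2-WT, and 2.64% and 3.55% in Tet2-KO against Tet2-Mut. Of 31 upstream regulators and modifiers of p53, none passed in Tet2-KO against Tet2-WT by limma (7 at an unadjusted p under 0.05), while edgeR called 1 and DESeq2 2. In Tet2-Mut against Tet2-WT, 2 rose: Cdkn2a, which encodes the Mdm2 inhibitor p19Arf and the Cdk inhibitor p16, by 0.72 (SE 0.14, limma adjusted p = 0.0327), and Usp10, a deubiquitinase of p53 on chromosome 8, by 0.31 (adjusted p = 0.0396). In Tet2-KO against Tet2-Mut, the p53 kinase Hipk2 rose by 0.42 (adjusted p = 0.0448) and Usp10 fell by 0.47 (log2, adjusted p = 0.00694), near the chromosome 8 median of -0.52.

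Of 34 further p53 targets outside the members, 5 rose and 1 fell in Tet2-KO against Tet2-WT, where 3.0% of all genes rose and 2.91% fell. Their median log2 fold change was 0.14, beside -0.00 over all genes. Igfbp3, a binding protein of insulin-like growth factors, rose by 1.80 (SE 0.15, limma adjusted p = 0.00348) and Thbs1, an extracellular matrix protein, by 1.76 (SE 0.29, adjusted p = 0.0151). Tnfrsf18, a receptor of the TNF receptor family, fell by 1.51 (adjusted p = 0.0249). Thbs1 is also made by fibroblasts, whose marker sum was highest in Tet2-KO. The streak and mesoderm sum was highest there too (1994 and 2547, beside 857 to 1020 in Tet2-WT). The part of such cells in the values of Thbs1 and Igfbp3 was not tested. In Tet2-Mut against Tet2-WT, Gadd45a, a stress sensor, rose by 0.55 (adjusted p = 0.0329) and Sesn2, a relative of Sesn1, by 0.44 (adjusted p = 0.0361). None fell there by limma or edgeR, and 3 fell by DESeq2. Sesn2 was also among the genes that rose in Tet2-KO against Tet2-WT, by 0.43 (limma adjusted p = 0.0285). In Tet2-KO against Tet2-Mut, Igfbp3, Sesn3 and Trim21 rose, by 1.72, 0.56 and 0.93, and none fell by limma, edgeR or DESeq2.

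Of 21 genes of the mitochondrial apoptosis machinery, the survival gene Bcl2 rose by 1.44 (SE 0.29, limma adjusted p = 0.0264) and Cycs, cytochrome c, by 0.29 (adjusted p = 0.0481) in Tet2-KO against Tet2-WT. Of 25 cell cycle genes that p53 is known to repress through p21 and the DREAM complex, none passed in Tet2-KO against Tet2-WT by limma or edgeR (6 at an unadjusted p under 0.05), and DESeq2 called 1, Mcm5. In Tet2-Mut against Tet2-WT, Cdc20, an activator of the anaphase-promoting complex, rose by 0.30 (limma adjusted p = 0.0492). Kif23, a kinesin of cytokinesis, fell by 0.41 (adjusted p = 0.0279), and E2f1, an S phase transcription factor, by 0.58 (adjusted p = 0.0492), a call that edgeR did not make. In Tet2-KO against Tet2-Mut, Mcm5, also on chromosome 8, fell by 0.50 (log2, adjusted p = 0.00767). With chromosome medians set equal, Usp10 and Mcm5 passed no test in any comparison. The same setting ended the calls of Hipk2 and Trim21 in Tet2-KO against Tet2-Mut and of Gadd45a, Cdc20 and E2f1 in Tet2-Mut against Tet2-WT. It also ended that of Cycs in Tet2-KO against Tet2-WT. These genes lie on chromosomes 2, 4, 6 and 7, whose medians in those comparisons ran from -0.01 to 0.06. The share of all genes called fell too, from 6.19% to 2.67%, from 3.43% to 2.27% and from 5.91% to 5.26% in the order just named. Why these calls ended was not tested.

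The member calls depended on single libraries, as did calls over all genes. In Tet2-KO against Tet2-WT no member passed by limma without Tet2-WT replicate 1, 2 or 3 or without Tet2-KO replicate 1 (15, 14, 10 and 12 at an unadjusted p under 0.05), 4 passed without Tet2-KO replicate 2, and 8, with Cdkn1a and Btg2 added, without either Tet2-Mut library. The share of all genes called moved too, from 5.91% with all libraries to between 0.490% and 0.571% without a Tet2-WT library and 12.4% or 12.5% without a Tet2-Mut library. In Tet2-Mut against Tet2-WT none passed without any 1 Tet2-WT library or without Tet2-Mut replicate 2 (10, 11, 15 and 10 unadjusted), 9 without Tet2-Mut replicate 1 and 4 without either Tet2-KO library. There 3.43% of all genes were called with all libraries and 12.7% without Tet2-Mut replicate 1. In Tet2-KO against Tet2-Mut, Ckap2 passed in each of the 7 fits that left out 1 library, and the counts ran from 1 to 11, with 3.06% to 15.5% of all genes called. Limma without its mean trend called 0 members in each comparison (15, 10 and 9 unadjusted) and 19, 0 and 10 of all genes, while edgeR called the same member genes as the limma fit above in each. A fit of the 2 groups alone called no member (9 unadjusted) and 0 of all genes in Tet2-KO against Tet2-Mut, and under quantile normalization Mdm4 and Ei24 in that comparison and Ckap2 in Tet2-Mut against Tet2-WT did not pass.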

How the data were processed

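The authors deposited 1 table for 7 RNA-seq libraries, a linear signal per gene made by dividing counts by size factors from DESeq2. Trim Galore 0.6.5, STAR 2.7.3a, featureCounts and the genome build mm10 are named, per the submitters' processing notes, without their settings. The annotation, the strand setting and whether mates of a pair were counted separately are not given in the sources used here. The 3 bisulfite and 18 CUT&Tag samples were not analysed here.

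Groups came from the sample labels. Group differences come from limma 3.58.1 under R 4.3.3 (log2 of normalized count + 1, group means over 7 libraries, trended prior, two-sided, threshold 0.05) for 17338 genes with at least 10 in at least 2 libraries. Residual degrees of freedom were 4, and the prior added 5.03. Within 0.01 reads, 100% of the values in each library came out as whole reads. The reads recovered from them entered edgeR 4.0.16 and DESeq2 1.42.0. Every replicate pair differed by more than sampling noise (chi-square over its degrees of freedom at least 7.14), and the Tet2-Mut (44.1) and Tet2-KO (33.4) clones were further apart than the Tet2-WT cultures. Chromosomes came from RefSeq GRCm38.p6 (16090 genes matched, 92.8%). The limma step was tested on simulated counts.

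The members and the lists (p53 upstream regulators, further targets, mitochondrial apoptosis, p21-DREAM cell cycle, and ESC, fibroblast and streak markers) were chosen with earlier results of these data known. Values by library are given for Trp53, Cdkn1a, Mdm2 and each member past a test, and for other members chosen for their roles, in part after their values were seen. Of the other lists, up to 4 genes past the test with the smallest p are named, and Sesn2 in both comparisons with Tet2-WT. Some genes past the test in these lists are not reported here.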

Additional observations from a re-analysis of the deposited data

How the results depend on the processing

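Among 13 settings other than leaving out a library, edgeR gave the same counts of members past the test as limma (6 in Tet2-KO against Tet2-WT, 2 in Tet2-Mut against Tet2-WT, 5 in Tet2-KO against Tet2-Mut). The counts, in that order of comparisons, were 0, 0 and 1 with a replicate block (10, 14 and 10 at an unadjusted p under 0.05) and 0, 0 and 0 without the mean trend. Of all genes 5.91%, 3.43% and 6.19% were called in the limma fit above, and 0.0865%, 0.0404% and 2.69% with the block. Without the mean trend 19, 0 and 10 of all genes were called. Same-numbered libraries showed little shared deviation (correlations of -0.07 to 0.09), and the labels do not say that the numbers mark a pairing. In a group of 2 the deviations are mirror images, so these correlations cannot exclude a shared day or batch. Fits of only the 2 groups compared called 8, 4 and 0 (9 unadjusted in the last), and DESeq2 7, 6 and 7. Those 2-group fits called 12.5%, 5.19% and 0% of all genes, and DESeq2 11.5%, 8.97% and 10.4%. Limma on genes with a mean of at least 50 called 6, 3 and 5, beside 7.81%, 4.61% and 7.68% of the genes it tested. Quantile normalization gave 1 in Tet2-Mut against Tet2-WT and 3 in Tet2-KO against Tet2-Mut, where the members' median became -0.048. It called 2.83% and 6.24% of all genes in these 2 comparisons. With chromosome medians set equal, chosen after seeing the data, these counts were 1 and 2, and Ckap2 in Tet2-KO against Tet2-Mut changed sign, to 0.032. The shares of all genes called were then 2.27% and 2.67%. Leaving out 1 library gave 0 to 8, 0 to 9 and 1 to 11 members, while the share of all genes called ran from 0.490% to 12.5%, 0.0346% to 12.7% and 3.06% to 15.5%. Without 1 library the members' medians ran from 0.071 to 0.13 in the first comparison, from 0.15 to 0.27 in the second and from -0.16 to -0.031 in the third. Beyond the construction of the alternatives (fewer samples, chromosome medians removed), the cause of these shifts was not tested. Depth limits Fas alone among the members, at 2 to 34 reads a library.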
